A study of Mus musculus with 229 samples.

Results

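Oxidative phosphorylation transcripts were taken as every gene row whose symbol began with mt-, with Ndufa, Ndufb, Ndufc, Ndufs or Ndufv, with Uqcr, with Cox4 to Cox8, or with Atp5, leaving out Ndufa4l2. The rule used symbols and no measured value, and it found 128 rows over all expression tables. They were 13 mitochondrial protein-coding genes, 2 mitochondrial rRNAs, 22 mitochondrial tRNAs, 78 nuclear subunit genes, 7 complex I assembly factors, 2 genes of the factor B family and 4 pseudogene rows. The tumour libraries listed 100 (GBM dpi35) and 125 (GBM dpi25) of these rows, among 27998 and 20465 rows in all. The PDGFRa-GFP and hGFAP-GFP cortex libraries listed 123 and 124, among 22105 and 25995. The full-length tables listed 91 (PDGFRa-GFP) and 87 (hGFAP-GFP) member rows and no mitochondrial row.

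The respiratory chain passes electrons from NADH through complex I, the quinone pool, complex III, cytochrome c and complex IV to oxygen, and the proton gradient this builds drives the ATP synthase, complex V. Its subunits come from separate genomes. The mitochondrial genome is transcribed inside the organelle from both of its strands as long precursors, while the remaining subunits are nuclear genes read by RNA polymerase II and imported as proteins. Neurons and differentiating oligodendrocytes are known for a high demand on this pathway, and many tumours for a high rate of glycolysis alongside it.

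The study sequenced single cells of mouse glioblastoma from the cortical region and of sorted GFP-positive cerebral cortex. A 10x library held a tumour labelled dpi35 (GBM dpi35), and Drop-seq libraries held a tumour labelled dpi25 (GBM dpi25), PDGFRa-GFP cortex of P1-3 pups and hGFAP-GFP cortex of P5-6 pups. PDGFRa is widely used to mark oligodendrocyte precursors (OPCs) and GFAP to mark astroglia. Full-length Fluidigm C1 cells came from PDGFRa-GFP cortex at P6 (53 cells) and P3 (60 cells), and from hGFAP-GFP cortex at P4/P6 (61 cells) and P3 (49 cells). ATAC-seq of PDGFRa-GFP cells at E14.5 and P5 was available as 1 pooled list of open intervals. The labels describe the cortex mice as normal for the reporter gene, give the tumours no strain or inducing agent and no genotype beyond GBM, and name no animal. The C1 PDGFRa cells carry an hGFAP-gfp entry in their strain field, and the stage fields of the ATAC samples disagree with their titles, which were followed here.

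The 4 droplet libraries held 6054 (GBM dpi35), 4955 (GBM dpi25), 3184 (PDGFRa-GFP) and 815 (hGFAP-GFP) cells with 51194749, 11544233, 8166699 and 4196024 unique molecular identifiers (UMIs), and shared 0 cell barcodes. OPC-like cells made up 808 of the PDGFRa-GFP cells, beside 925 interneuron-like cells, and astrocyte-like cells 188 of the hGFAP-GFP cells. The labels state 6796 cells for GBM dpi25 and 2000 for hGFAP-GFP. Each droplet group was 1 library, so no test between groups was possible, and every interval below is a 95% interval that covers counting error only. Levels are UMIs per 1000000 UMIs of the summed library (CPM), not divided by transcript length. A member was counted as higher or lower when its CPM ratio passed 1.5-fold and it had at least 20 UMIs over both libraries. In a summed library, fewer cells of a type and less RNA per cell cannot be told apart.

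The pooled ATAC-seq list placed open chromatin over nearly every matched nuclear subunit promoter. RefSeq promoter windows of the GRCm38.p6 build (250 bases before to 50 after the start) were found for 65 of the 78 nuclear subunit genes, in 70 windows. An open interval touched 67 of the 70 windows (95.7%), against 14110 of all 32851 promoter windows (43%) and 85.6% of the windows of genes with at least 20 UMIs in PDGFRa-GFP P1-3. The 3 windows without an interval were those of Cox7a1, Cox7b2 and Cox8b, tissue-restricted complex IV isoforms. In that library Cox7a1 had 11 UMIs and Cox7b2 had 2, and its table lists no Cox8b.

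Letters of motifs read by known regulators of respiratory genes were searched on both strands of the same windows. The core of the sites bound by nuclear respiratory factor 1 (NRF1), GCGCA followed after any 1 base by GCGC, was in 22.9% of the subunit windows and in 4.60% of all windows (10.2% for the genes with 20 UMIs). CCGGAAG, an ETS core of the kind bound by GABPA, was in 20% (14 of 70), against 8.86% of all windows (17.4%). AAGATGGC, a YY1 core, was in 14.3%, against 2.75% (4.53%). At least 1 of the 3 motifs was in 35 of the 70 subunit windows, 14.7% of all windows and 28.6% of windows of genes with 20 UMIs, and no ETS and YY1 match overlapped in a subunit window. By complex, some motif was in 18 of 34 complex I windows (52.9%), 3 of 5 of complex III (60.0%), 3 of 14 of complex IV (21.4%) and 11 of 17 of complex V (64.7%). The complex IV windows include those of Cox7a1, Cox7b2 and Cox8b, which had no match, and these counts are small. The 250 bases before the start are shown for a complex I gene that was higher in GBM dpi25 and carries the NRF1 letters (Ndufa8), for a pair of complex V genes that were not higher (Atp5g2, Atp5l), and for the broadly used and the muscle form of the same complex IV subunit (Cox7a2, Cox7a1). Capitals mark the matches on either strand.
Ndufa8, chr2:36049339-36049588, minus strand, NRF1 letters: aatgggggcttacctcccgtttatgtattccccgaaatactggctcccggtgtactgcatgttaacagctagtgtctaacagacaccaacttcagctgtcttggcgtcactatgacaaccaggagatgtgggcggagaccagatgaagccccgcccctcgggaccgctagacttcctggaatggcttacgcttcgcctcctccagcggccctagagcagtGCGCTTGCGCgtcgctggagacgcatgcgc
Atp5g2, chr15:102671048-102671297, minus strand, NRF1 letters on both strands: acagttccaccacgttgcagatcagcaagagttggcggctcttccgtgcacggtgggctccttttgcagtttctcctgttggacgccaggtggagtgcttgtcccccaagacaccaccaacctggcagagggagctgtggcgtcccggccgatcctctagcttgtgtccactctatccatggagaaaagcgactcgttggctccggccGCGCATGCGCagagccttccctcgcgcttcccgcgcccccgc
Atp5l, chr9:44920743-44920992, minus strand, ETS letters: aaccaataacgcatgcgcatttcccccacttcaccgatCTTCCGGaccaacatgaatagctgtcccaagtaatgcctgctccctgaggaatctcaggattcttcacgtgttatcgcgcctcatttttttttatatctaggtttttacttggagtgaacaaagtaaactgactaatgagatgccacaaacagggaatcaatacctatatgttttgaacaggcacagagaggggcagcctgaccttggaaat
Cox7a2, chr9:79759854-79760103, minus strand, no match, under an open interval: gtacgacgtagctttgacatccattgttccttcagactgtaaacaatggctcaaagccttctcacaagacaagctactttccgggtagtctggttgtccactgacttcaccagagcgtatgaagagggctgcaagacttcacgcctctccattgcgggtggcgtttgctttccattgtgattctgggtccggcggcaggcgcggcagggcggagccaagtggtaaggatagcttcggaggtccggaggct
Cox7a1, chr7:30183921-30184170, plus strand, no match, no open interval: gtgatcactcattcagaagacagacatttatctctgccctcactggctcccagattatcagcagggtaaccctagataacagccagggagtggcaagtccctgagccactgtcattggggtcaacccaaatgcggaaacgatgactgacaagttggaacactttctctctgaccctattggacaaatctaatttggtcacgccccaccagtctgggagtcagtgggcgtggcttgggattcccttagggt
The Atp5g2 stretch holds 19 CG pairs and that of Ndufa8 17, while those of Cox7a2, Atp5l and Cox7a1 hold 14, 7 and 4. A match of letters is a description of the window and not a bound site.

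Nuclear subunit transcripts made up a larger share of all UMIs in the tumours than in the cortex libraries. They took 3.07% of UMIs in GBM dpi35, 3.35% in GBM dpi25, 2.53% in PDGFRa-GFP P1-3 and 2.13% in hGFAP-GFP P5-6. The medians of the per-cell shares were 2.98%, 3.41%, 2.44% and 2.07% in the same order. The mitochondrial protein-coding genes did not follow that order. Their share was 7.02% in GBM dpi35, 1.86% in GBM dpi25, 1.71% in PDGFRa-GFP P1-3 and 2.06% in hGFAP-GFP P5-6, so the 3 Drop-seq libraries lay close together and the 10x library stood apart. For each nuclear subunit UMI, GBM dpi35 held 2.29 mitochondrial protein-coding UMIs, GBM dpi25 held 0.553, PDGFRa-GFP 0.676 and hGFAP-GFP 0.967.

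The mitochondrial rRNAs differed more than the mRNAs. They took 4.40% of UMIs in GBM dpi25, 1.45% in PDGFRa-GFP and 3.31% in hGFAP-GFP, and the 10x table listed neither rRNA nor tRNA rows of the mitochondrion. Nearly all of this was the large-subunit rRNA mt-Rnr2, whose level was 43014, 14273 and 32299 CPM in GBM dpi25, PDGFRa-GFP and hGFAP-GFP cells. The 22 mitochondrial tRNA rows summed to 266 CPM in GBM dpi25, 284 in PDGFRa-GFP and 980 in hGFAP-GFP. A mitochondrial share that includes rRNA and tRNA therefore put PDGFRa-GFP well below the others (3.19%, against 6.28% in GBM dpi25 and 5.47% in hGFAP-GFP). By the protein-coding rows alone PDGFRa-GFP was also lowest, but the 3 libraries lay between 1.71% and 2.06%, and hGFAP-GFP was highest.

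**Figure D1:**
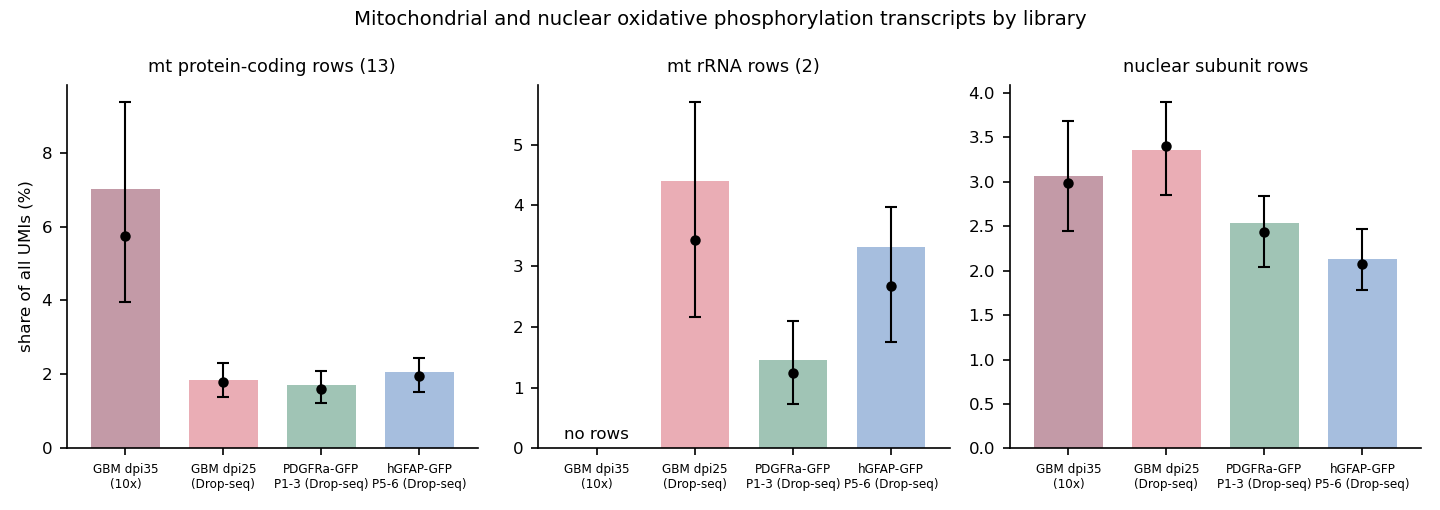
Share of all UMIs (%, y axis) in the 13 mitochondrial protein-coding rows, the 2 mitochondrial rRNA rows and the nuclear subunit rows of each library. Bars give the share of summed UMIs, points the median cell and whiskers the quartiles over cells; nuclear bars are highest for GBM dpi25 (3.35%) and the mitochondrial protein-coding bar for GBM dpi35 (7.02%).

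By complex, the nuclear subunits of complex I took 0.949% of UMIs in GBM dpi35, 1.13% in GBM dpi25, 0.792% in PDGFRa-GFP and 0.671% in hGFAP-GFP. Complex III, which moves electrons to cytochrome c, took 0.357%, 0.339%, 0.228% and 0.187% in that order. Complex IV, the oxygen-consuming step, took 0.978%, 1.12%, 0.878% and 0.751%. Complex V took 0.786%, 0.764%, 0.636% and 0.520%. For all 4 complexes both tumour libraries lay above both cortex libraries and hGFAP-GFP was lowest.

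The 13 mitochondrial protein-coding genes did not differ as a block, although they are cut from shared precursors. In GBM dpi25 against PDGFRa-GFP, 1 was at least 1.5-fold higher and 4 were lower (all genes 26.5% higher and 27.5% lower). Against hGFAP-GFP, 1 was higher and 6 were lower (all genes 28.7% and 30.2%). The higher gene was mt-Nd1 both times, a complex I subunit at 4509 CPM in GBM dpi25, 2785 in PDGFRa-GFP and 2668 in hGFAP-GFP. At the other end was mt-Atp8, a small complex V subunit at 51.4, 132 and 547 CPM in the same libraries, with log2 ratios of -1.36 and -3.41. Between them, mt-Co1, a catalytic subunit of complex IV, had 2670, 2512 and 3139 CPM, and mt-Cytb, the complex III cytochrome, 2135, 1746 and 1821 CPM. The median log2 ratio of the 13 genes was -0.20 against PDGFRa-GFP, while their summed CPM gave 0.12, so median and sum differed in sign. Against hGFAP-GFP they were -0.41 and -0.15.

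PDGFRa-GFP against hGFAP-GFP had no mitochondrial protein-coding gene higher and 5 of 13 lower (all genes 35.3% in either direction, 1964 higher and 2817 lower of 13555). The extremes were mt-Co3, a complex IV subunit (2412 CPM in PDGFRa-GFP and 1988 in hGFAP-GFP, log2 0.28), and mt-Atp8 (log2 -2.05), with mt-Nd6 beside it at 76.4 and 313 CPM (log2 -2.04). The complex I gene mt-Nd6 lies alone among the protein genes on the other strand of the mitochondrial genome. The reading frames of mt-Atp8 and mt-Nd4l overlap those of mt-Atp6 and mt-Nd4, so their reads can be split between neighbours, and their values are uncertain.

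GBM dpi35 against GBM dpi25 had 10 of the 13 higher and 1 lower (all genes 26.1% and 39.3%), with a median log2 ratio of 1.70. The highest ratio was that of mt-Co3, at 14690 CPM in GBM dpi35 and 2093 in GBM dpi25 (log2 2.81), and mt-Atp6, the proton-channel subunit of complex V, had 14889 and 3042 CPM. The lowest was mt-Nd6, with 18.9 and 72.5 CPM (log2 -1.94), and mt-Nd5 had 535 and 684 CPM. Stage and chemistry, 10x against Drop-seq, differ together here and cannot be told apart.

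**Figure D2:**
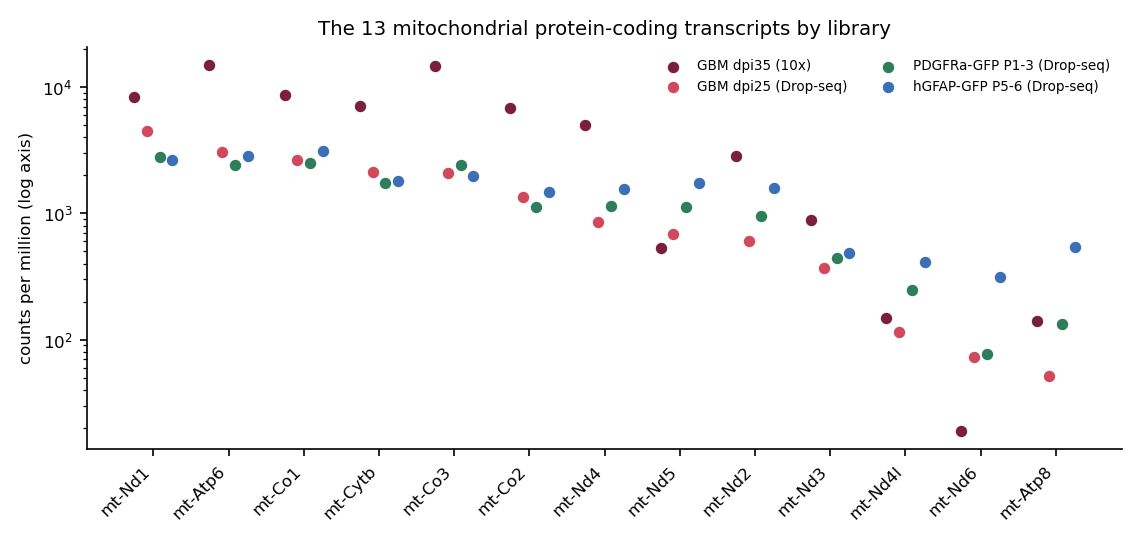
CPM (y axis, log scale) of each mitochondrial protein-coding gene (x axis, ordered by level in GBM dpi25) in the 4 libraries. GBM dpi35 is the highest point for every gene but mt-Nd5, mt-Nd4l, mt-Nd6 and mt-Atp8, for which hGFAP-GFP is highest (547 CPM for mt-Atp8).

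Log2 ratios of nuclear subunits in GBM dpi25 against PDGFRa-GFP cortex lay mostly above 0, but most stayed within 1.5-fold. Of 75 that could be called, 50 lay within 1.5-fold. At least 1.5-fold higher were 24, and 1, Cox6b2, was lower, against 26.5% and 27.5% of all genes. At 2-fold, 2 of 75 were higher (all genes 16.2%). The median log2 ratio was 0.43, against -0.01 over all genes, and 63 of the 75 ratios lay above 0 (all genes 7014 of 14162). By complex, higher members numbered 13 of 36 in complex I, 5 of 8 in complex III, 4 of 16 in complex IV and 2 of 15 in complex V. Against hGFAP-GFP cortex, 52 of 75 were higher and 4 lower (all genes 28.7% and 30.2%), with a median of 0.74 against 0.01 over all genes. There the higher members numbered 27 of 36, 5 of 8, 11 of 16 and 9 of 15, and the lower ones were Cox6b2, Cox7b, Atp5g2 and Atp5l. The complex IV counts include Cox6a2 and Cox4i2, which reached the minimum of 20 UMIs through the tumour (31 and 24 UMIs in GBM dpi25, 2 and 3 in PDGFRa-GFP, 1 and 4 in hGFAP-GFP). With at least 100 UMIs, 22 of 72 were higher against PDGFRa-GFP (all genes 24.6%) and 50 of 72 against hGFAP-GFP (29.8%). Both comparisons use the same tumour library. In each, tumour and cortex also differ in stage, library and, for the cortex, sorting for GFP, and these cannot be told apart.

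Complex I, the largest set with 36 members, held the most higher members in both comparisons. By share, complex III led against PDGFRa-GFP (5 of 8, against 13 of 36). Against hGFAP-GFP complex I led (27 of 36, against 5 of 8). Complex III had the larger medians, 0.68 and 1.02, against 0.44 and 0.73 for complex I. Ndufs8, an iron-sulfur subunit on the path to quinone, had 244 CPM in GBM dpi25, 123 in PDGFRa-GFP and 98.2 in hGFAP-GFP. Its log2 ratios were 0.98 (0.88 to 1.09) and 1.31 (1.16 to 1.46). Ndufa8, an accessory subunit whose promoter is printed above, had 296, 154 and 122 CPM, with ratios of 0.94 and 1.28. Ndufa2 and Ndufc2, with Ndufc1 the complex I subunits of highest CPM in GBM dpi25, had 652 and 650.2 CPM there, 413 and 417 in PDGFRa-GFP and 327 and 399 in hGFAP-GFP. The accessory subunits Ndufc1 and Ndufa12 had ratios of 0.98 and 0.97 against PDGFRa-GFP, and Ndufb6 had 1.25 against hGFAP-GFP. Ndufc1 and Ndufa12 had 312 and 221 CPM in PDGFRa-GFP, below the 337 and 267 CPM of hGFAP-GFP.

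In complex III, Uqcrq, a small subunit that holds the complex together, had 686 CPM in GBM dpi25, 353 in PDGFRa-GFP and 276 in hGFAP-GFP, with log2 ratios of 0.96 and 1.31. Uqcrb had 575, 355 and 268 CPM, and Uqcrh 541, 494 and 416. The core protein Uqcrc1 stood apart at 104, 139 and 117 CPM, with ratios of -0.42 and -0.18, both within 1.5-fold.

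In complex IV the abundant subunit Cox4i1 had 1440 CPM in GBM dpi25, 1057 in PDGFRa-GFP and 694 in hGFAP-GFP. Cox6c had 1206, 904 and 736 CPM, and Cox6b1 1187, 867 and 711. Cox7a2l, which links complex IV into supercomplexes, had 243, 358 and 245 CPM, a log2 ratio of -0.56 against PDGFRa-GFP and of -0.01 against hGFAP-GFP. Cox7b had 760 CPM in GBM dpi25, 620 in PDGFRa-GFP and 1270 in hGFAP-GFP (log2 ratio -0.74 for GBM dpi25 against hGFAP-GFP). In hGFAP-GFP this small complex IV subunit had between 944 and 1741 CPM in each of the 11 clusters, and in PDGFRa-GFP between 394 and 1019 in each of the 19.

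Complex V was split. Atp5f1, of the stalk that holds the catalytic head in place, had 864 CPM in GBM dpi25, 541 in PDGFRa-GFP and 340 in hGFAP-GFP, with a log2 ratio of 1.35 against hGFAP-GFP. Atp5j, another stalk subunit, had 872, 493 and 404 CPM, and Atp5e, of the central rotor, 676, 509.6 and 405. Atp5g2, a gene for the proton-carrying c ring, had 249, 342 and 388 CPM, and Atp5l, a membrane subunit, 284, 394 and 432. Their ratios were -0.46 and -0.47 against PDGFRa-GFP and -0.64 and -0.60 against hGFAP-GFP. The Drop-seq tables also list the pseudogene Atp5l-ps1, at 137, 202 and 296 CPM, so the reads of Atp5l may be split and its level is uncertain. Other c ring genes encode the same mature protein, and Atp5g1 had 301, 205 and 185 CPM.

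**Figure D3:**
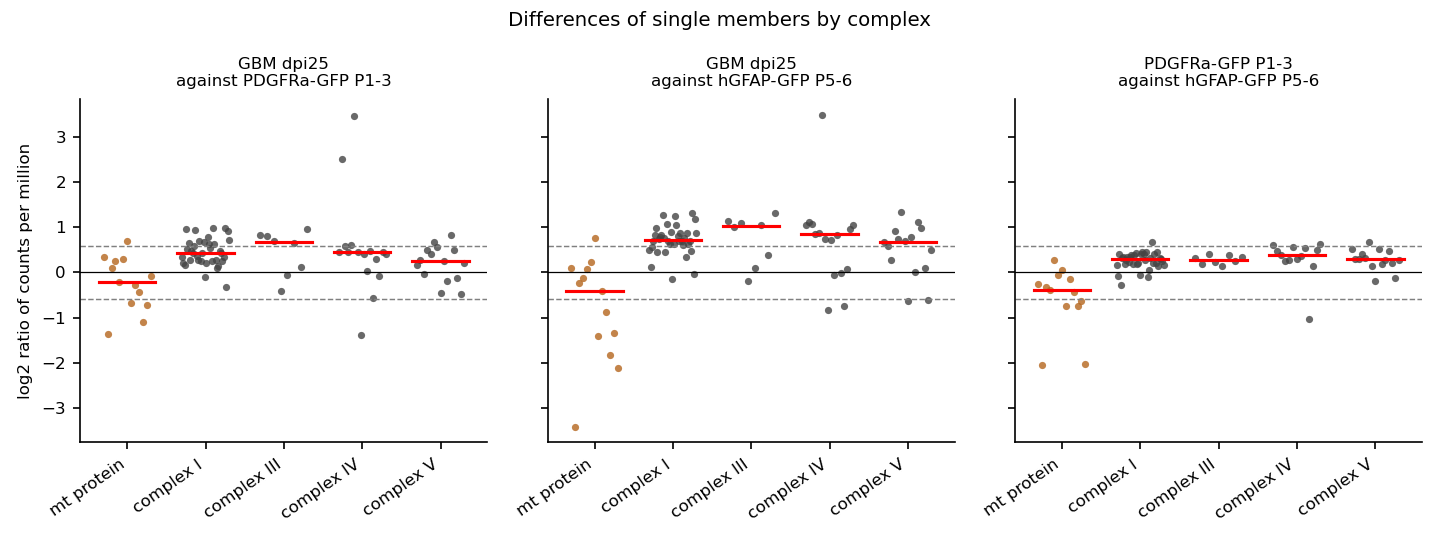
Log2 ratio of CPM (y axis) for each callable member of the mitochondrial protein-coding set and of nuclear complexes I, III, IV and V, in 3 comparisons of libraries. Each point is 1 gene, the red line is the median, and the dashed lines mark 1.5-fold; nuclear medians lie above 0 (0.43, 0.74 and 0.30 over all nuclear subunits) and mitochondrial medians below 0. The highest complex IV points of the tumour panels are Cox6a2 and, in the left panel, also Cox4i2, each with at most 3 UMIs in the cortex library.

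The contrasts were repeated within named classes of at least 50 cells found in both libraries. For GBM dpi25 and the cortex these were S phase and cycling cells. Both are states of the cell cycle, so the cell types within them may still differ. Among S phase cells alone, 32 of 71 nuclear subunits were higher and 1 lower in GBM dpi25 against PDGFRa-GFP (all genes 33% higher), with a median of 0.54 against 0.12 over all genes. Among cycling cells it was 32 of 72 and 0 (29.9% of all genes), with a median of 0.54 against 0.09. Against hGFAP-GFP, 51 of 71 were higher in S phase cells (36.6% of all genes) and 57 of 72 in cycling cells (36.8%), with medians of 0.87 and 0.94 against 0.21 and 0.23 over all genes. The 13 mitochondrial genes had medians of -0.13 and -0.07 against PDGFRa-GFP and of -0.20 and -0.07 against hGFAP-GFP in these classes. Their summed CPM lay on the other side, with log2 ratios of 0.36 and 0.33 against PDGFRa-GFP and of 0.15 and 0.16 against hGFAP-GFP, so that the -0.15 of the whole libraries against hGFAP-GFP turned in sign. A list of hypoxia genes also moved with the groups, at 1091 CPM in GBM dpi35, 2115 in GBM dpi25, 490 in PDGFRa-GFP and 515 in hGFAP-GFP, and its part in the result was not tested.

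Between the whole cortex libraries nearly all nuclear subunits stayed within 1.5-fold. In PDGFRa-GFP against hGFAP-GFP, 4 of 72 were higher and 1 lower (all genes 35.3% in either direction). The median log2 ratio was 0.30, against 0.04 over all genes, and 65 of 72 ratios lay above 0 (all genes 7115 of 13555). Among the higher members were Atp5f1, of complex V (541 CPM in PDGFRa-GFP and 340 in hGFAP-GFP, log2 0.67), Ndufa4, now counted in complex IV (842 and 543, 0.63), and Cox4i1 (1057 and 694, 0.61). Cox6b2 followed, within 1.5-fold, at 0.55. The lower member was Cox7b (620 and 1270, -1.03), followed within 1.5-fold by Ndufa12 (-0.27), Atp5g2 (-0.18), Atp5l (-0.13) and Ndufc1 (-0.11). Within classes found in both libraries more members passed the fold, but so did a larger share of all genes. Between the whole libraries 1964 of 13555 genes were higher. Higher members numbered 16 of 71 in interneuron-like cells (all genes 23.5%) and 9 of 72 in OPC-like cells (25.4%). They numbered 9 of 71 in S phase cells (20.8%) and 7 of 72 in cycling cells (20.1%), with 1 lower in each class. In every class the higher share of members lay below that of all genes. Reporter strain, age and library differ together between these groups and cannot be told apart.

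Nuclear subunits in GBM dpi35 lay on either side of GBM dpi25, and their direction depended on the scaling and on which cells were compared. In GBM dpi35 against GBM dpi25, 9 of 75 were higher and 18 lower (all genes 26.1% and 39.3%), with a median log2 ratio of -0.14. Over all genes the median was -0.28. Scaling by median of ratios gave 13 higher and 6 lower (all genes 32.3% and 30.5%) and a median of 0.13, so the direction flipped. Without immune, vascular, ependymal and choroid plexus clusters it was 9 higher and 10 lower (25.6% and 33.1%) and a median of 0.02. At the higher end were the tissue-restricted Cox6a2 (3.19), Cox7a1 (1.82) and Cox6b2 (1.03), all among the 9 higher members. They had 1254, 251 and 686 UMIs in GBM dpi35, but 31, 16 and 76 in GBM dpi25. Each met the UMI minimum for a named gene only through GBM dpi35, the library with more UMIs. Cox7a1 also met the minimum for a call only through GBM dpi35. The complex V gene Atp5g2 was also at this end (722 CPM in GBM dpi35 and 249 in GBM dpi25, log2 1.53). So was Atp5l, of the same complex (792 and 284, 1.48), although the 10x table has no Atp5l-ps1 row. At the other end were Atp5f1 (369 and 864 CPM, -1.23), the complex I subunits Ndufs1 (30.98 and 63.1, -1.03), Ndufc2 (325 and 650.2, a ratio of -1.0) and Ndufv2 (206 and 398, -0.95), and Uqcrfs1, the Rieske iron-sulfur protein of complex III (152 and 289, -0.93). Within cell classes found in both tumours, mitochondrial protein-coding genes were again higher in GBM dpi35, 10 of 13 in each of the cycling, endothelial-like and microglia or macrophage-like cells (all genes 22.9%, 21.7% and 14.4% higher). Their medians were 1.63, 1.53 and 1.84. In the same classes the nuclear medians were 0.07, 0.20 and 0.12, against -0.14, -0.22 and -0.47 over all genes.

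Genes around the pathway gave a mixed picture in GBM dpi25. Outside the rule, succinate dehydrogenase, which is complex II and a tricarboxylic acid cycle enzyme, had Sdhc at 181 CPM in GBM dpi25, 76.8 in PDGFRa-GFP and 69.6 in hGFAP-GFP and Sdhd at 206, 101 and 92.2, but Sdha at 107, 90.7 and 77.2 and Sdhb at 272, 232 and 223. Cyc1, of complex III, had 284, 169 and 134 CPM, and Cycs, cytochrome c itself, 298, 163 and 176. Of these and the other OXPHOS genes outside the rule, 4 of 9 were higher against PDGFRa-GFP and 5 of 9 against hGFAP-GFP, and 0 were lower in either. For these and the next lists, the shares of all genes were 26.5% higher and 27.5% lower against PDGFRa-GFP, and 28.7% and 30.2% against hGFAP-GFP. Mitochondrial ribosomal protein genes, which serve translation of the 13 mitochondrial mRNAs, had 36 of 75 and 48 of 75 higher and 0 lower. Tricarboxylic acid cycle genes had 7 of 15 higher and 1 lower, and 6 of 15 and 0. Glycolysis genes had 12 of 15 higher and 1 lower both times, with medians of 1.31 and 1.53, among them Ldha, the lactate-forming enzyme, at 907 CPM against 140 and 153.

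Of 13 genes for transcription and RNA handling of mitochondrial DNA, 2 were higher and 2 lower in GBM dpi25 against each cortex library, counts to be set beside the same all-gene shares. Their median log2 ratios were -0.04 against PDGFRa-GFP, with 6 of 13 above 0, and 0.25 against hGFAP-GFP, with 11 of 13 above 0. Over all genes 7014 of 14162 and 7123 of 14189 ratios lay above 0. Against hGFAP-GFP, 6 of 12 were higher in S phase cells (all genes 36.6%) and 6 of 13 in cycling cells (36.8%). Tfam, which packages and activates mitochondrial DNA, had 55.7 CPM in GBM dpi25, 51.3 in PDGFRa-GFP and 46.9 in hGFAP-GFP, and Lrpprc, which stabilises mitochondrial mRNAs, 11.8, 26.4 and 26.7. Of the 7 nuclear regulators, 1 was higher and 2 lower against PDGFRa-GFP, and 3 higher and 2 lower against hGFAP-GFP. Ppargc1a, a coactivator of mitochondrial biogenesis, had 15, 41 and 135 UMIs, or 1.30, 5.02 and 32.2 CPM, and the related Pprc1 had 9.27, 5.88 and 3.10 CPM. Nrf1 had 22.2, 34.2 and 21.7 CPM and Gabpa 28.5, 29.9 and 39.6. Of the member assembly factors of complex I, Ndufaf4 had 138, 52.9 and 73.6 CPM, Ndufaf2 191, 166 and 175, and Ndufaf7 45.4, 54.1 and 50.5. A wider list of assembly factors had 6 higher and 3 lower of 24 against PDGFRa-GFP, and 5 and 2 against hGFAP-GFP. In GBM dpi35 against GBM dpi25, the tricarboxylic acid cycle list had 0 higher and 12 lower of 15, the mitochondrial ribosomal list 1 and 37 of 75, and cytosolic ribosomal protein genes 64 higher and 3 lower of 79. Beside them stood 26.1% higher and 39.3% lower over all genes, or 32.3% and 30.5% with median-of-ratios scaling, under which these lists were not counted. Their median log2 ratios were -1.19, -0.56 and 1.44, against -0.28 over all genes.

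Complex IV isoforms restricted to particular tissues were near the counting floor in most libraries, with clear exceptions in single cell classes. Cox6a2, the form of heart and skeletal muscle, had 1254 UMIs (24.5 CPM) in GBM dpi35, 31 (2.69) in GBM dpi25, 2 (0.24) in PDGFRa-GFP and 1 (0.24) in hGFAP-GFP. In GBM dpi35 1005 of those UMIs came from the 2432 microglia or macrophage-like cells, at 44.3 CPM, against 2.56 in OPC-like, 2.35 in cycling, 5.74 in endothelial-like and 1.92 in oligodendrocyte-like cells. The log2 ratio of the whole libraries was 3.19 (2.68 to 3.75) for GBM dpi35 against GBM dpi25 and 3.45 (1.48 to 6.56) for GBM dpi25 against PDGFRa-GFP. Microglia or macrophage-like cells numbered 2432, 342 and 6 in GBM dpi35, GBM dpi25 and PDGFRa-GFP. Their number and their level per cell cannot be told apart in these ratios. Of the 6 clusters of that class in GBM dpi35, 5 lay between 38.5 and 57.4 CPM. In GBM dpi25 18 of its 31 UMIs came from the 342 cells of the same class (20.9 CPM), in which the overlapping gene Itgad had 0 UMIs. The ubiquitous partner Cox6a1 had 622 CPM in these cells of GBM dpi35, against 895 in the OPC-like cells. RefSeq places Cox6a2 at chr7:128205435-128206366 (GRCm38.p6), where it overlaps by 70 bases Itgad, an integrin gene of myeloid cells that had 26 UMIs (1.15 CPM) in the class in GBM dpi35 and 0 in OPC-like, cycling and endothelial-like cells. Without strand information reads of the overlap cannot be told apart, and the counts of Cox6a2 are uncertain to that extent.

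Cox6b2, the form known from testis, had 686 UMIs (13.4 CPM) in GBM dpi35, 76 (6.58) in GBM dpi25, 140 (17.1) in PDGFRa-GFP and 49 (11.7) in hGFAP-GFP. Its log2 ratio was -1.38 in GBM dpi25 against PDGFRa-GFP and -0.83 against hGFAP-GFP. In PDGFRa-GFP, 72 of the 140 UMIs came from the 53 choroid plexus-like cells, at 275 CPM, against 12.3 in OPC-like, 4.86 in cycling and 2.66 in interneuron-like cells. In hGFAP-GFP, 28 of 49 UMIs came from 61 ependymal-like cells (92.9 CPM), and in GBM dpi35 the ependymal-like cells had 46 UMIs (57.7 CPM) and the oligodendrocyte-like cells 104 (39.9 CPM). Among the broadly used partners, Cox7a2 had 667, 880.4, 637 and 492 CPM and Cox8a 1372, 1120, 817 and 576 CPM in GBM dpi35, GBM dpi25, PDGFRa-GFP and hGFAP-GFP. The somatic partner Cox6b1 had 839 CPM in the choroid plexus-like cells and 974 in the OPC-like cells of PDGFRa-GFP.

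Cox4i2, a form tied to oxygen sensing, had 167 UMIs (3.26 CPM) in GBM dpi35, 24 (2.08) in GBM dpi25, 3 in PDGFRa-GFP and 4 in hGFAP-GFP. In GBM dpi35 it was at 47.7 CPM in 44 mural-like cells (27 UMIs), against 3.57 in OPC-like and 3.27 in microglia or macrophage-like cells. Cox7a1, the muscle form whose promoter had no open interval, had 251, 16, 11 and 6 UMIs in GBM dpi35, GBM dpi25, PDGFRa-GFP and hGFAP-GFP. In GBM dpi35 its level was 21.3 CPM in ependymal-like cells (17 UMIs) and 7.28 in microglia or macrophage-like cells. Cox7b2 had 10, 2, 2 and 3 UMIs, Cox8b 13 in GBM dpi35 and 1 in each of GBM dpi25 and hGFAP-GFP, and Cox8c 1 in GBM dpi35 and 2 in GBM dpi25.

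Cell classes were built by clustering without any member row and named from marker genes, and unnamed clusters were kept apart. In PDGFRa-GFP, the choroid plexus-like cells had the highest shares of the classes with at least 50 cells, 3.24% nuclear (3.18 to 3.31) and 3.09% mitochondrial protein-coding. OPC-like cells had 2.73% and 1.90%, S phase cells 2.59% and 1.48%, cycling cells 2.37% and 1.41%, and interneuron-like cells 2.26% and 1.73%. Against the other cells of the library, 20 of 72 nuclear subunits were higher in the choroid plexus-like cells (all genes 26.3%), with a median of 0.27 against -0.40 over all genes, and 11 of 13 mitochondrial genes were higher. The median UMI count was 4703 in these cells and 1449 in the interneuron-like cells. Single members spread further, with Ndufa13 of complex I at 717 CPM in choroid plexus-like and 225 in interneuron-like cells. Ndufa1 had 595 and 170 CPM, and Atp5g1, of the c ring, 576 and 158.

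In hGFAP-GFP, astrocyte-like cells had 2.44% nuclear and 2.50% mitochondrial protein-coding UMIs, and OPC-like cells 2.34% and 2.42%. S phase cells had 2.21% and 1.71%, ependymal-like cells 2.10% and 1.84%, excitatory neuron-like cells 1.91% and 2.14%, cycling cells 1.90% and 1.58%, and interneuron-like cells 1.85% and 1.91%. In the interneuron-like cells 17 of 72 nuclear subunits were lower than in the other cells (all genes 32.9%), with a median of -0.28 against -0.13. The iron-sulfur subunit Ndufs8 had 160 CPM in OPC-like cells and 56.6 in interneuron-like cells here, and 186 and 61.2 CPM in the same classes of PDGFRa-GFP. Ndufs1 had 57.5 CPM in OPC-like cells and 20.8 in excitatory neuron-like cells, from 27 and 8 UMIs. Ndufab1, the acyl carrier protein of complex I, had 269 CPM in ependymal-like and 108 in interneuron-like cells. Uqcr11 of complex III had 364 in astrocyte-like and 146 in cycling cells, and Ndufc2 553 in S phase and 226 in interneuron-like cells.

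In GBM dpi25, S phase cells had 3.73% nuclear and 1.89% mitochondrial protein-coding UMIs, cycling cells 3.42% and 1.76%, and interferon-responding cells 3.29% and 1.80%. The hypoxic cells, whose hypoxia list summed to 6038 CPM, had 3.49% nuclear UMIs (3.45 to 3.53) and 1.72% mitochondrial (1.69 to 1.74). Endothelial-like cells had 2.53% and 1.73%, and microglia or macrophage-like cells 2.34% and 1.56%. Unnamed clusters (725 cells) had 3.30% and 2.42%. In the microglia or macrophage-like class 36 of 74 nuclear subunits were lower than in the other cells (all genes 46.1%), with a median of -0.56 against -0.49, and 5 of 13 mitochondrial genes were lower. Ndufa4 had 1302 CPM in S phase and 511 in microglia or macrophage-like cells, Ndufs4 324 and 112, and Uqcrc2 239 in interferon-responding cells and 82.6 in the myeloid class. Ndufv2 had 479 CPM in interferon-responding cells (68 UMIs) and 164 in endothelial-like cells (44 UMIs), and Ndufa5 429 in S phase and 164 in endothelial-like cells.

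In GBM dpi35, OPC-like cells had 3.80% nuclear and 8.60% mitochondrial protein-coding UMIs and cycling cells 3.71% and 6.17%. Oligodendrocyte-like cells had 3.39% and 5.86%, ependymal-like cells 3.23% and 8.495%, endothelial-like cells 3.02% and 5.89%, and microglia or macrophage-like cells 2.61% and 5.44%. In the myeloid class 19 of 75 nuclear subunits were lower than in the other cells (all genes 56.8%), with a median of -0.41 against -0.76. Ndufa5 had 500.2 CPM in cycling and 154 in microglia or macrophage-like cells. The library held 413 cells with over 20% mitochondrial protein-coding UMIs, and the other libraries held 0. An unnamed cluster of 262 cells had 39.7% mitochondrial and 3.81% nuclear UMIs at a median of 4073 UMIs, against 6582 in the whole library, and an OPC-like cluster of 177 cells had 19% and 3.41%. Without the 413 cells the library's shares were 5.91% mitochondrial and 3.06% nuclear.

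**Figure D4:**
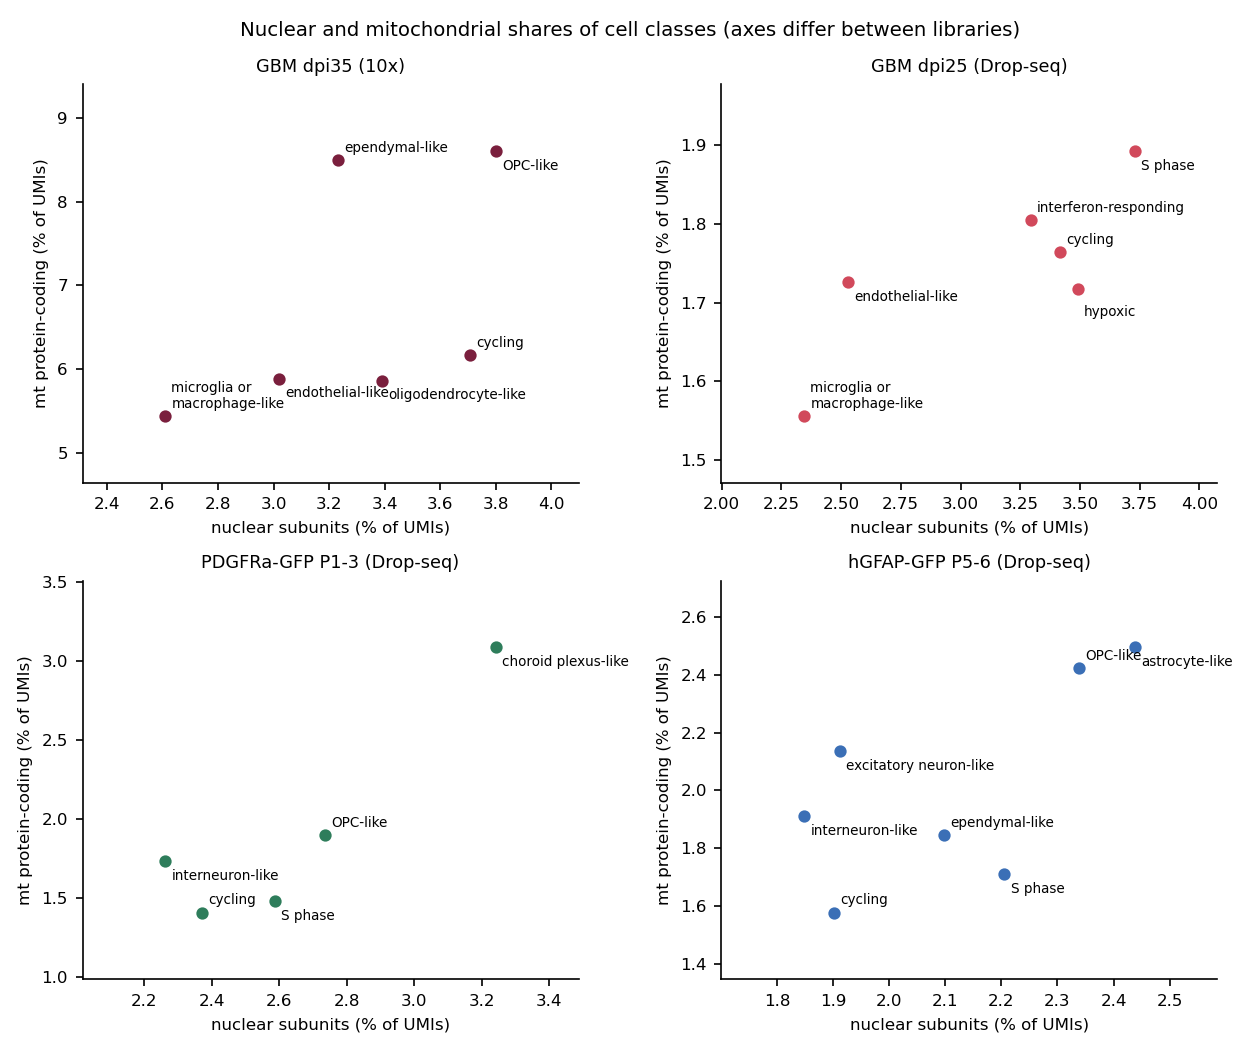
Mitochondrial protein-coding share (y axis, % of UMIs) against nuclear subunit share (x axis, % of UMIs) for each named class of at least 50 cells, 1 panel per library, each with its own axis range that does not start at 0. Microglia or macrophage-like cells are lowest on both axes in the tumours (2.34% and 1.56% in GBM dpi25), and choroid plexus-like cells are highest on both in PDGFRa-GFP (3.24% and 3.09%).

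The full-length C1 cells gave nuclear subunits only, in TPM (transcripts scaled per cell). They were compared within each table because the tables were normalized separately. The listed rows did not sum to a common total. Their median sums per cell were 918158 at P6 and 881081 at P3 in PDGFRa-GFP, and 889576 at P4/P6 and 922463 at P3 in hGFAP-GFP. In PDGFRa-GFP cells the summed nuclear subunits averaged 21960 ± 6732 TPM at P6 (SD over 53 cells) and 26468 ± 6603 at P3 (60 cells), a difference smaller than the spread between cells. Of 73 subunits with a mean of at least 1 TPM, 6 were higher and 18 lower at P6 (all genes 43.6% and 28.2%), with a median log2 ratio of -0.32 against 0.32 over all genes. With the listed rows rescaled to a common total, 6 were higher and 23 lower (all genes 42.6% and 29.2%). A P6 cell had a median of 5591 detected genes and a P3 cell 4124.5, and the part of this difference in the result was not tested. Of complex I 3 of 36 were higher and 9 lower, of complex III 1 and 3 of 8, of complex IV 1 and 3 of 14, and of complex V 1 and 3 of 15. Ndufs8 averaged 182 TPM at P6 and 98.2 at P3 (log2 0.88) and was detected in 66.04% and 33.3% of cells. The c ring gene Atp5g3 averaged 768 and 449 TPM (0.77), Uqcrfs1 143 and 84.9 (0.75) and Ndufs1 133 and 80.3 (0.72). At the other end Atp5k, a membrane subunit of complex V, averaged 149 and 345 TPM (-1.20), and the complex I subunits Ndufv3 136 and 324 (-1.24) and Ndufb3 37.1 and 91.9 (-1.29). Cox6b2 averaged 2.29 and 10.4 TPM (-1.79), from 3.77% and 3.33% of cells. In both C1 tables the SD over cells exceeded the mean in each set for every subunit named by its ratio, except Atp5k in PDGFRa-GFP cells at P3.

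In hGFAP-GFP cells the sum averaged 45153 ± 12676 TPM at P4/P6 (SD over 61 cells) and 39872 ± 8295 at P3 (49 cells), again a difference within the spread between cells. Of 75 subunits 15 were higher and 5 lower (all genes 34.9% and 34.6%), with a median of 0.23 against 0.02 over all genes. The direction turned when the mean of log2(TPM + 1) was compared, which gave 18 higher and 17 lower (all genes 9.79% and 14.8%). The median was then -0.15, against -0.04 over all genes. By mean TPM, complex I held 11 of the 15 higher subunits, complex IV 3 and complex V 1. The complex I subunits Ndufs3, Ndufb2, Ndufs5 and Ndufs1 averaged 408, 297, 209 and 133 TPM at P4/P6, against 109, 112, 82.6 and 59.1 at P3. Their log2 ratios were 1.89, 1.40, 1.33 and 1.16. At the lower end Atp5g3 averaged 664 TPM at P4/P6 and 1338 at P3 (log2 -1.01). Cox7a1 (0.13 and 13.8 TPM) and Cox6b2 (0.58 and 17.01 TPM) had the lowest ratios, -3.71 and -3.51, and were detected in 1.64% and 2.04%, and in 3.28% and 6.12%, of the cells. Ndufs1 was thus at the higher end in both tables, and Atp5g3 at the higher end in PDGFRa-GFP and at the lower end in hGFAP-GFP. The cells of a set are not replicates of a stage, and no animal is named.

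**Figure D5:**
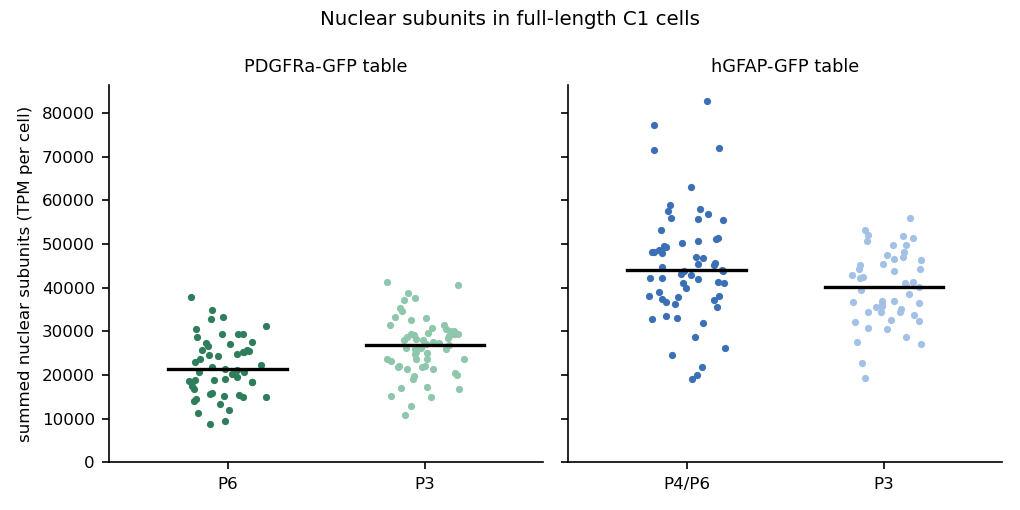
Summed nuclear subunits per C1 cell (TPM, y axis) for P6 and P3 PDGFRa-GFP cells and for P4/P6 and P3 hGFAP-GFP cells, each point 1 cell and each line the median. Medians are 21367 at P6 and 26973 at P3 in PDGFRa-GFP, and 44068 at P4/P6 and 40216 at P3 in hGFAP-GFP, with wide overlap of the sets; panels were normalized separately.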

How the data were processed

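Summed UMI counts of 4 droplet libraries, TPM of 223 C1 cells and 1 pooled list of ATAC-seq intervals were used, out of 229 samples in 10 groups. Per the submitters' processing notes, reads were aligned to mm10 with STAR (Drop-seq), Cell Ranger (10x) or through RSEM (C1), and ATAC-seq with Bowtie2 and MACS2, with rn5 also named. The Drop-seq tables as deposited hold a scaled signal, UMI counts brought to a fixed total per cell by the authors, and 100% of values returned to whole UMIs within 0.1. The 10x table holds raw counts as deposited, and the C1 tables TPM as deposited, without mitochondrial rows. The deposited interval list gives a fold enrichment and −log10 p and q values per interval, which were not used. It held 76321 distinct intervals of a median 230 bases.

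UMIs were summed per library and class, and ratios carry exact conditional 95% intervals, shares Clopper-Pearson ones. Clusters were built without member rows (scanpy 1.11.5, leidenalg 0.10.2) and called "-like" from marker lists. Scrublet marked 125 doublets in GBM dpi35, 0 in GBM dpi25, 5 in PDGFRa-GFP and 4 in hGFAP-GFP. These cells were kept, and doublets the caller did not mark may remain. C1 ratios are log2 ratios of mean TPM, with 1 TPM added to each mean. Named genes were the 5 highest and lowest ratios among nuclear subunits with at least 100 UMIs, the 4 highest and lowest for C1, and the 5 widest class ranges. A gene that this rule names is not reported here. Other genes named were picked for their role or after their values were seen. The members and lists were chosen with earlier results of these data known. Steps were tested on simulated counts.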

Additional observations from a re-analysis of the deposited data

How the results depend on the processing

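Of the medians and sums over nuclear subunits and over mitochondrial protein-coding genes, those of 3 comparisons turned in direction. The nuclear median in GBM dpi35 against GBM dpi25 (-0.14) was 0.13 with median-of-ratios scaling. It was 0.02 without immune, vascular, ependymal and choroid plexus clusters, where the summed log2 ratio of -0.13 was 0.03. Within cycling, endothelial-like and microglia or macrophage-like cells the medians were 0.07, 0.20 and 0.12. The summed log2 ratios in these classes were 0.12, 0.26 and 0.15. Sums were not recomputed under the other scalings. The nuclear median in C1 hGFAP-GFP (0.23) was -0.15 by the mean of log values. The mitochondrial sum in GBM dpi25 against hGFAP-GFP (-0.15) was 0.15 in S phase and 0.16 in cycling cells. Of the main values recomputed, 103 stayed within the counting error or within 1.5 times of a count and 62 moved past it.

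Mitochondrial protein-coding rows alone gave shares of 1.86% in GBM dpi25, 1.71% in PDGFRa-GFP and 2.06% in hGFAP-GFP. Per-cell medians (GBM dpi35, GBM dpi25, PDGFRa-GFP, hGFAP-GFP) were 5.74%, 5.47%, 2.94% and 4.85% for all mitochondrial rows and 2.98%, 3.41%, 2.44% and 2.07% for nuclear subunits. Of non-mitochondrial UMIs, nuclear subunits took 3.30%, 3.58%, 2.62% and 2.25%. Thinned to 1000 UMIs a cell, which left out 500 PDGFRa-GFP cells, mitochondrial shares were 8.57%, 6.46%, 3.37% and 5.53%, and nuclear shares 2.49% in PDGFRa-GFP and 2.15% in hGFAP-GFP. Without cells over 20% mitochondrial, GBM dpi35 had 5.91% and 3.06%.

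For GBM dpi25 against PDGFRa-GFP, 2 of 75 nuclear subunits were 2-fold higher (all genes 16.2%). Lower ones past 1.5-fold numbered 2 after thinning (26.3%) and 0 without immune, vascular, ependymal and choroid plexus clusters (27.9%) or in cycling cells (23.5%). Against hGFAP-GFP, 18 of 75 were 2-fold higher and 0 lower (all genes 17.2% and 20.5%). Lower ones past 1.5-fold numbered 2 after thinning (26.2%) and 2 without those clusters (28.9%). In S phase cells 2 were lower (23.4%) and in cycling cells 1 (23.8%). For PDGFRa-GFP against hGFAP-GFP, 3 were lower with a minimum of 1 UMI in each library (all genes 34.1%) and 0 were 2-fold higher (4.85%). In S phase cells 9 were higher (20.8%) and in cycling cells 7 (20.1%). For GBM dpi35 against GBM dpi25, 6 were lower with median-of-ratios scaling (all genes 30.5%) and 10 without those clusters (33.1%). At 2-fold, 5 of 75 were higher and 2 lower (19.2% and 26.2%). For C1 PDGFRa-GFP, 30 of 73 were lower by the mean of log values (all genes 8.58%), and 1 was 2-fold higher and 5 lower (33.9% and 20.5%). For C1 hGFAP-GFP, 17 of 75 were lower by the mean of log values (all genes 14.8%) and 6 were 2-fold higher (25.7%).

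Class ratios are log2 of the share. For choroid plexus-like over interneuron-like cells in PDGFRa-GFP (nuclear 0.52, mitochondrial 0.83), the mitochondrial ratio was 0.88 at clustering resolution 2, and thinning gave 0.42 and 1.05. For astrocyte-like over interneuron-like cells in hGFAP-GFP (0.40 and 0.38), resolution 2 gave 0.23 and 0.45. For S phase over microglia or macrophage-like cells in GBM dpi25, the mitochondrial ratio of 0.28 was 0.32 with member rows kept in the clustering and 0.23 after thinning, and resolution 2 had no S phase class. For OPC-like over microglia or macrophage-like cells in GBM dpi35 (0.54 and 0.66), resolution 0.5 gave a mitochondrial ratio of 0.69, resolution 2 gave 0.57 and 0.75, member rows kept 0.57 and 0.71, thinning 0.59 and 0.63, and leaving out cells over 20% mitochondrial 0.56 and 0.52. The cause of these movements was not tested.

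The alternatives with S phase or cycling cells alone, and without cells over 20% mitochondrial, were chosen after seeing the data. No paired analysis was possible because each droplet group was 1 library, and cells of a C1 set carry numbers that name no shared animal. Intervals cover counting error only.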
